A study of Mus musculus with 6 samples.

Results

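The genes described here encode the surface glycoproteins with which platelets stick to a damaged vessel wall and to each other. They were chosen by symbol, as 10 named genes, and all 10 were found among the 16533 genes of the count tables. All 10 also passed the expression filter that left 16523 genes for testing. Levels were measured by RNA sequencing of inferior vena cavae, each with its thrombus, taken from mice 24 h after the vein was ligated to stop its flow. One group were Stingf/f Lyzm-Cre+/- mice, called mKO below, in which Cre is made from the Lyz2 locus and removes the loxP-flanked Sting1 gene in myeloid cells. The other were Stingf/f mice without Cre, called control (their titles read WT), so that both groups carried the floxed allele and both had ligated veins. Each library was made from a pool of 3 thrombi, with 3 libraries in each group, and p-values measure the spread between such pools. No platelet fraction was isolated, and Lyz2-driven Cre is a tool for neutrophils, monocytes and macrophages rather than for megakaryocytes. The sources used here give neither age nor sex of the mice.

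Platelets have no nucleus, and the transcripts they hold were made in the megakaryocyte that shed them. Flowing platelets are first caught by von Willebrand factor, which binds the GPIb-IX-V complex built from Gp1ba, Gp1bb, Gp9 and Gp5. Collagen then signals through Gp6, and podoplanin through Clec1b, and these signals switch the integrin of Itga2b and Itgb3 into the form that binds fibrinogen and links platelets into a clot. In a ligated vein, platelets gather together with neutrophils and monocytes in a clot that also traps red cells.

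The 250 bases before the RefSeq start of Gp1ba, Gp5 and Gp9 are shown because these subunits of one surface complex had the widest (Gp1ba, Gp5) and the narrowest (Gp9) fold of the 10 genes between mKO libraries 2 and 1, as described further on. Sequences are RefSeq's, on mouse build GRCm38.p6, written 5′ to 3′ on the gene's own strand. Capitals mark GATAA or its reverse TTATC (the core bound by GATA factors), AGGAAG or its reverse CTTCCT (a form bound by ETS factors), and TGTGGT or its reverse ACCACA (bound by RUNX factors). All these windows are intergenic in GENCODE M21 on the same assembly, and no matches overlapped.
Gp1ba, chr11:70638872-70639121, plus strand: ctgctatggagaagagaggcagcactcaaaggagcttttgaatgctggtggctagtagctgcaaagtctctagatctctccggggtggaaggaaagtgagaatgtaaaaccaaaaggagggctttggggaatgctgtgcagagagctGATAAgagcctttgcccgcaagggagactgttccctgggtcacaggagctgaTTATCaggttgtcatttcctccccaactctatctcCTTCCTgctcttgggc
Gp5, chr16:30310782-30311031, minus strand: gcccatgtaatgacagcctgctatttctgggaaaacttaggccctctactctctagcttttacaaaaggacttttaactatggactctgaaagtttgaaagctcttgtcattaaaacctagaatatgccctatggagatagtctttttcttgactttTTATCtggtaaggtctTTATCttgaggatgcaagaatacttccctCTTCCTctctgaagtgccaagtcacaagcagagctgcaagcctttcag
Gp9, chr6:87777820-87778069, plus strand: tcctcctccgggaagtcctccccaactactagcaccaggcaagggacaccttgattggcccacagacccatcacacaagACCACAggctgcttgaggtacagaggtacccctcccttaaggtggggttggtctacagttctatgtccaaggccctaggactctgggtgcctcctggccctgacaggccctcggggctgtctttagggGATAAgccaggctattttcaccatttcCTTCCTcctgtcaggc
Of the 10 genes, 9 had a window in the RefSeq table, and Itgb3 had none. GATAA was found on either strand in 5 of the 9 windows (Gp1ba, Gp5, Gp9, Gp6 and Clec1b), and in 22.6% of all 32851 windows of the same length. In Gp1ba the matches began 103 and 51 bases before the start, and in Gp9 43 bases before it. AGGAAG was in 4 of the 9 windows (Itga2b, Gp1ba, Gp5 and Gp9) and 29.5% of all, and TGTGGT in 1 of the 9 (Gp9) and 14% of all. A match describes letters only and is not evidence of binding. The window of Gp1bb, at chr16:18622404-18622653 on the minus strand, lies wholly in an annotated exon of the neighbouring gene Septin5.

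All 6 libraries were deep, with 158579864 to 180068483 counts, and the 10 genes took 0.163% to 0.325% of them. The lowest count of any of the 10 genes was 2985, for Itga2 in mKO library 1, so counting error was small beside the spread between pools. Sting1, the targeted gene, had 22.7, 21.4 and 28.7 CPM (read counts scaled to a common library size) in the mKO libraries, against 25.1, 31.4 and 27.1 CPM in the control libraries, and these groups overlapped. Its log2 fold change was -0.20 (SE 0.14, adjusted p 0.579 by edgeR quasi-likelihood). The count covers the whole gene in all cells of the tissue, so it does not test a deletion restricted to myeloid cells. Skeletal muscle genes set mKO library 3 apart, with a summed level of 164.6 CPM over 5 of the 6 genes listed, against 2.96 to 45.1 CPM in the other libraries. Myh4, the defining fast myosin among them, was at 0 counts in control library 1.

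All 10 glycoprotein transcripts had lower mean levels in mKO than in control libraries, but none passed the test and the groups overlapped for every one. By edgeR quasi-likelihood, 0 of the 10 had an adjusted p under 0.05, as had 0 of all 16523 genes (0%). Limma voom also called 0 of the 10 and 0 of all genes (0%). DESeq2 likewise called 0 of the 10, with 462 of 16514 genes (2.80%) called. At an unadjusted p under 0.05, 1 of the 10 was lower, Clec1b, where 6.26% of all genes were (11.9% in either direction). The log2 fold changes ran from -0.65 to -0.21, with a median of -0.43, beside a median of -0.03 over all genes tested. All 10 were negative, where 54.1% of all genes were. CPM are relative to all other RNA in a pool. In tissue pools such as these, neither the number of platelets nor the RNA per platelet can therefore be told from them.

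**Figure D1:**
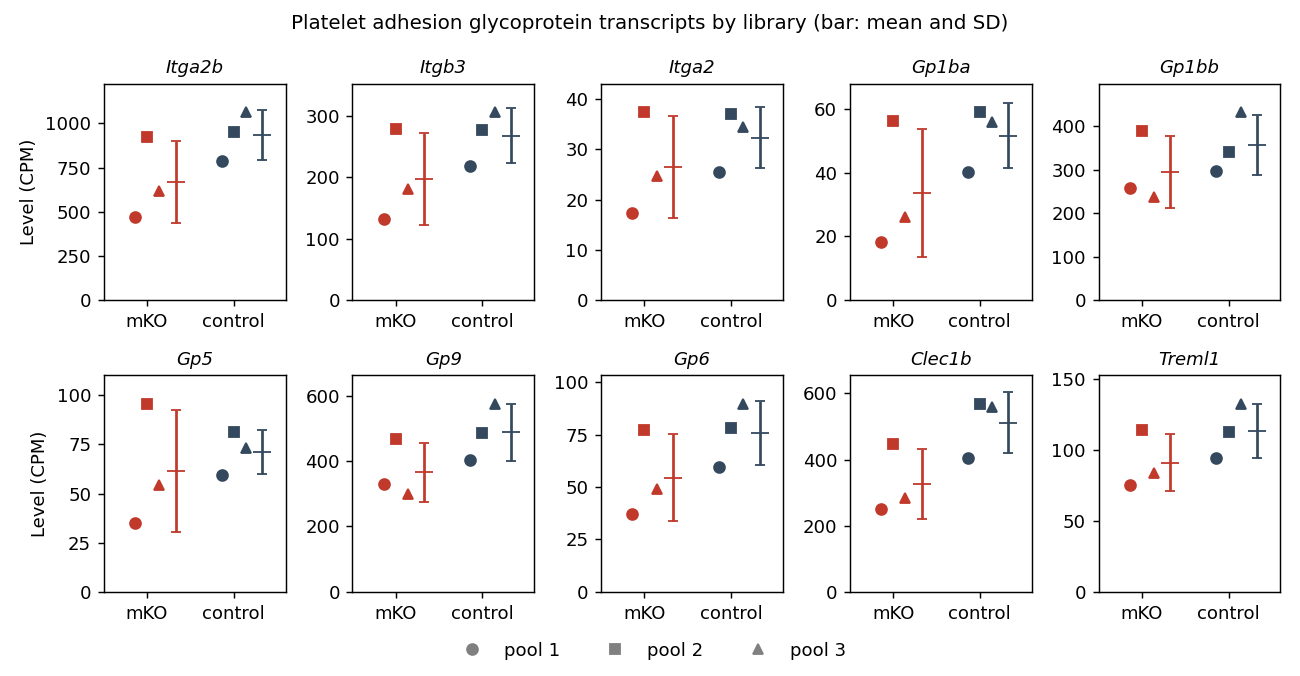
Level of each glycoprotein transcript, in CPM on axes that start at 0, in the 3 mKO libraries and the 3 control libraries. Points are pools and the bar beside them is the mean and SD. Pool 2 of mKO lies above the lowest control point in every panel, while pools 1 and 3 of mKO lie below every control point.

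The integrin subunits come first. Itga2b (ENSMUSG00000034664, chromosome 11), the alpha chain of the fibrinogen receptor, had 470.6, 924.6 and 616.4 CPM in mKO libraries 1 to 3, against 787.3, 951.0 and 1066 CPM in control libraries 1 to 3. Its means were 670.6 ± 232 CPM in mKO and 934.6 ± 140 CPM in control (SD, n = 3 each). Libraries 1 and 3 of mKO were below all control libraries, and mKO library 2 was above the lowest control library. The log2 fold change was -0.48 (SE 0.26, 95% interval -1.09 to 0.13, adjusted p 0.499 by edgeR quasi-likelihood). Itgb3 (ENSMUSG00000020689, chromosome 11), its beta chain, which endothelium, smooth muscle and macrophages can also make, had 132.7, 279.2 and 180.4 CPM in the mKO libraries, against 218.7, 277.5 and 306.5 CPM in the control libraries. Here mKO library 2 exceeded 2 of the 3 control libraries, and the log2 fold change was -0.44 (SE 0.28, adjusted p 0.543 by edgeR quasi-likelihood). Itga2 (ENSMUSG00000015533, chromosome 13), the alpha chain of a collagen-binding integrin also found on epithelium and fibroblasts, had 17.3, 37.5 and 24.7 CPM in the mKO libraries, against 25.6, 37.0 and 34.4 CPM in the control libraries. The highest value of Itga2 was that of mKO library 2, and its log2 fold change was -0.29 (SE 0.29, adjusted p 0.680 by edgeR quasi-likelihood). Leaving out mKO library 2 gave -0.62, and leaving out mKO library 1 gave -0.056.

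Of the GPIb-IX-V complex, Gp1ba (ENSMUSG00000050675, chromosome 11) carries the binding site for von Willebrand factor. Gp1ba had 18.2, 56.3 and 26.2 CPM in the mKO libraries, against 40.1, 59.1 and 55.8 CPM in the control libraries. It varied most of the 10 genes, 3.24-fold between its highest and lowest library, and mKO library 1 held only 35.3% of the control mean. Its log2 fold change of -0.62 (SE 0.43, 95% interval -1.68 to 0.43, adjusted p 0.577 by edgeR quasi-likelihood) was the second in size of the 10 and had the widest interval. Leaving out mKO library 2 gave -1.22, and leaving out mKO library 1 gave -0.33. Gp1bb (ENSMUSG00000050761, chromosome 16), the chain bound to Gp1ba by disulfide bonds, had 257.2, 389.7 and 236.0 CPM in the mKO libraries, against 296.6, 340.7 and 432.7 CPM in the control libraries. Its lowest library was mKO library 3 and its log2 fold change was -0.28 (SE 0.24, adjusted p 0.627 by edgeR quasi-likelihood). In GENCODE M21, 1938 of the 2087 exonic bases of Gp1bb are shared with Septin5 and Gm49601 on the same strand, so its count depends on how shared reads were assigned, which the sources used here do not state. Septin5 itself had 3936 to 6144 counts, and Gp1bb 40327 to 67037.

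Gp9 (ENSMUSG00000030054, chromosome 6), the small subunit needed to bring the complex to the surface, had 329.2, 467.5 and 298.4 CPM in the mKO libraries, against 401.9, 486.5 and 575.3 CPM in the control libraries. Its mKO libraries spanned a narrower fold range than those of Gp1ba, and its log2 fold change was -0.42 (SE 0.22, 95% interval -0.93 to 0.09, adjusted p 0.485 by edgeR quasi-likelihood). Gp5 (ENSMUSG00000047953, chromosome 16), the subunit that thrombin cleaves, had 35.0, 95.7 and 54.3 CPM in the mKO libraries, against 59.3, 81.2 and 73.2 CPM in the control libraries. In Gp5, mKO library 2 was the highest of all 6 and stood at 134.4% of the control mean, whereas mKO library 1 stood at 49.2% of it. Gp5 had the smallest log2 fold change in size, -0.21 (SE 0.35, adjusted p 0.813 by edgeR quasi-likelihood), and its sign depended on mKO library 1: without that library it was 0.075.

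Of the signalling receptors, Clec1b had the largest fold change in size of the 10 genes in the edgeR fit of all libraries, whereas by limma voom Gp1ba did, at -0.76 against -0.67 for Clec1b. Clec1b (ENSMUSG00000030159, chromosome 6), the podoplanin receptor, had 249.6, 447.1 and 283.1 CPM in the mKO libraries, against 404.3, 568.8 and 560.2 CPM in the control libraries. Its means were 326.6 ± 106 CPM in mKO and 511.1 ± 92.6 CPM in control (SD, n = 3 each). Only control library 1 kept the groups from separating, since it lay below mKO library 2. The log2 fold change was -0.65 (SE 0.25, 95% interval -1.24 to -0.05). The edgeR quasi-likelihood test gave an unadjusted p = 0.0364 and, over all genes, 0.390 after adjustment. By DESeq2 the adjusted p was 0.193, and an exact two-sided permutation test gave p = 0.2, where 0.1 is the smallest that 3 against 3 allows. Clec1b shares 184 exonic bases with the neighbouring gene Clec9a, which had 275 to 503 counts.

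Gp6 (ENSMUSG00000078810, chromosome 7), the collagen receptor that signals through the Fc receptor gamma chain, had 37.0, 77.4 and 49.3 CPM in the mKO libraries, against 59.6, 78.0 and 89.8 CPM in the control libraries. Its mKO library 2 lay close to control library 2, and its log2 fold change was -0.47 (SE 0.28, adjusted p 0.529 by edgeR quasi-likelihood). Treml1 (ENSMUSG00000023993, chromosome 17), a receptor that is stored in alpha granules and moves to the surface of activated platelets, had 75.2, 113.9 and 84.0 CPM in the mKO libraries, against 94.4, 112.6 and 132.6 CPM in the control libraries. Treml1 varied least of the 10, by 1.76-fold between its highest and lowest library, and its log2 fold change was -0.31 (SE 0.20, adjusted p 0.540 by edgeR quasi-likelihood).

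The same libraries were low for the whole set. Library 1 of mKO was the lowest of 6 for 8 genes, and mKO library 3 for the other 2, Gp1bb and Gp9. The highest was control library 3 for 6 genes, control library 2 for 2 and mKO library 2 for 2. Libraries 1 and 3 of mKO were both below every control library for all 10 genes, where 15.0% of all genes had that order. This pair of libraries was picked after the values of the 10 genes were seen. The genes also share the same pools, so they are not separate observations of it. Library 2 of mKO was above the lowest control library for all 10, and above at least 2 control libraries for 6. The groups did not separate for any of the 10, where 18.2% of all genes had groups that did not overlap and 9.39% had all mKO libraries lower. With total counts as the only scaling, 1 of the 10, Clec1b, was lower without overlap, as were 10.3% of all genes. The median log2 fold change was -0.72 when mKO library 2 was left out and -0.24 when mKO library 1 was, beside -0.43 with all libraries. Without mKO library 2 all 10 were lower without overlap, where 15.0% of all genes were, which repeats the order of mKO libraries 1 and 3 given above. Without control library 1 there were 4 of the 10, Itga2b, Gp9, Gp6 and Clec1b, where 19.1% of all genes were. In neither setting did any of the 10 reach significance after adjustment. The log2 fold changes of the 10 ran from -1.22 (Gp1ba) to -0.51 (Treml1) without mKO library 2, and from -0.48 (Clec1b) to 0.075 (Gp5) without mKO library 1. Without mKO library 3, the library with the most skeletal muscle transcript, the median was -0.34, and without it and control library 3, the next by that list, it was -0.23.

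The spread between pools on the log2 scale was wider among mKO than among control libraries for 10 of the 10 genes, where 54.1% of all genes had a wider mKO spread. The 10 genes share the same pools, low in mKO library 1 and high in mKO library 2, so they are not separate observations of this. Most, though not all, of 33 other platelet and megakaryocyte genes described further on also had a wider mKO spread. For Gp1ba the SD was 0.83 in mKO and 0.30 in control (n = 3 each), and for Treml1 it was 0.31 in mKO and 0.24 in control (n = 3 each). The 10 genes differed in how far they varied. Between mKO libraries 2 and 1 the fold was 3.09 for Gp1ba and 2.73 for Gp5, 1.96 to 2.17 for Itga2b, Itgb3, Gp6 and Itga2, and 1.42 to 1.79 for Gp9, Treml1, Gp1bb and Clec1b.

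**Figure D2:**
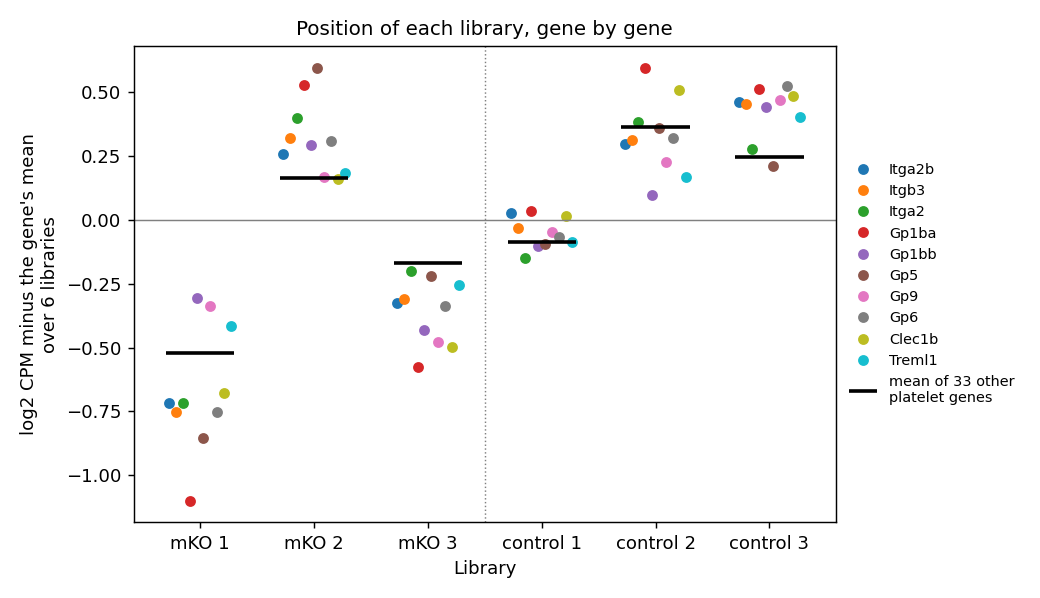
Each gene's log2 CPM minus its own mean over the 6 libraries, by library, with mKO left of control. Points are the 10 glycoprotein genes and the black line is the mean over 33 other platelet genes. In mKO library 1 Gp1ba lies lowest, at -1.10, and Gp1bb highest, at -0.31.

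Ratios of counts within a library do not depend on scaling, and 5 were compared. The ratio of Itga2b to Itgb3, the chains of one integrin, was nearly constant at 3.55, 3.31 and 3.42 in the mKO libraries, against 3.60, 3.43 and 3.48 in the control libraries. Its log2 difference was -0.03, with an exact two-sided permutation p of 0.4, also after adjustment. The ratio of Gp9 to Gp1bb was 1.28, 1.20 and 1.26 in the mKO libraries, against 1.35, 1.43 and 1.33 in the control libraries. This ratio alone of the 5 separated the groups, by a log2 difference of -0.14, with an exact two-sided permutation p of 0.1, the smallest possible, and 0.333 after Benjamini-Hochberg adjustment over the 5. The shared exons of Gp1bb bear on this ratio too, and their part in it was not tested.

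The ratio of Gp1ba to Gp9, by contrast, was 0.0554, 0.121 and 0.0879 in the mKO libraries, against 0.0997, 0.122 and 0.0970 in the control libraries. It varied more than any other of the 5 and overlapped between groups (exact two-sided permutation p = 0.4, also after adjustment). Gp6 over Clec1b was 0.148, 0.173 and 0.174 in the mKO libraries, against 0.147, 0.137 and 0.160 in the control libraries. Treml1 over Itga2b was 0.160, 0.123 and 0.136 in the mKO libraries, against 0.120, 0.118 and 0.124 in the control libraries. Both overlapped between groups, each with an exact two-sided permutation p of 0.2 and 0.333 after adjustment.

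**Figure D3:**
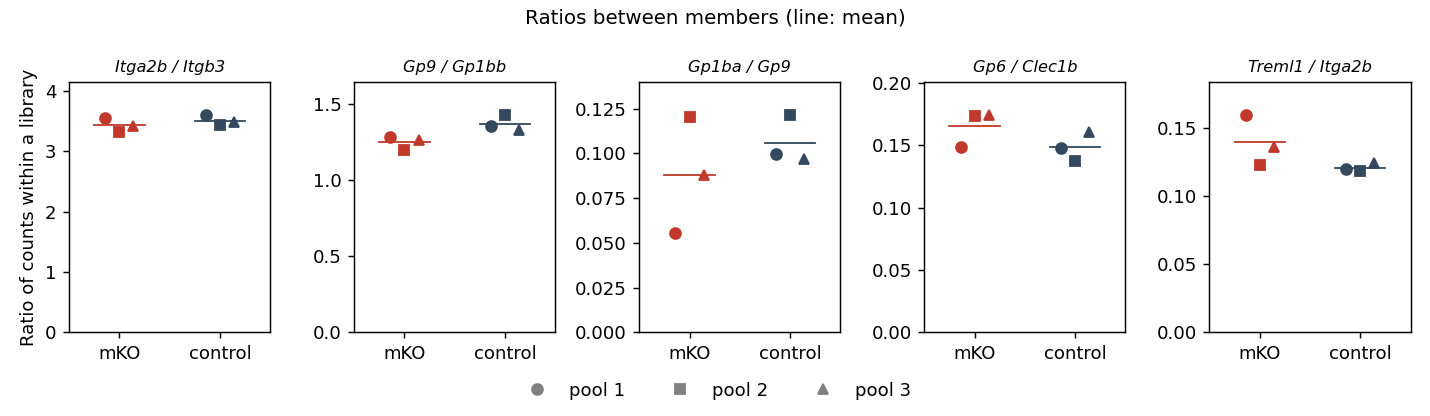
Ratio of counts of one glycoprotein gene to another within each library, on axes that start at 0, with mKO left of control and lines at the group means. Itga2b over Itgb3 stays between 3.31 and 3.60 in all 6 libraries, whereas Gp1ba over Gp9 runs from 0.0554 to 0.122.

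Levels of different genes can be compared only per length. Per kb of the principal transcript, Gp9 was highest, at 414.3 ± 102 CPM per kb in mKO and 553.8 ± 98.4 CPM per kb in control (SD, n = 3 each, as for all levels per kb). Clec1b followed at 299.6 ± 96.9 CPM per kb in mKO and 468.9 ± 85.0 CPM per kb in control. Itga2b had 195.1 ± 67.4 CPM per kb in mKO and 271.9 ± 40.7 CPM per kb in control. These were the genes with the most counts per length. Gp1bb had 141.2 ± 40.0 CPM per kb in mKO and 171.1 ± 33.3 CPM per kb in control. Treml1 had 74.6 ± 16.6 CPM per kb in mKO and 92.8 ± 15.7 CPM per kb in control, and Itgb3 34.1 ± 12.9 CPM per kb in mKO and 46.3 ± 7.73 CPM per kb in control. Subunits of a single receptor thus stood far apart, Itga2b above Itgb3 and Gp9 above Gp5 and Gp1ba. The level and rank of Gp1bb are uncertain, because 1938 of its 2087 exonic bases are shared with neighbouring genes. Its value per kb depends on how shared reads were assigned, which is not stated, so its place beside Gp9 cannot be told. Gp5 had 28.1 ± 14.1 CPM per kb in mKO and 32.4 ± 5.06 CPM per kb in control, and Gp1ba 12.4 ± 7.42 CPM per kb in mKO and 19.1 ± 3.75 CPM per kb in control. Gp6 had 9.25 ± 3.50 CPM per kb in mKO and 12.8 ± 2.58 CPM per kb in control, and Itga2 was lowest, at 3.72 ± 1.44 CPM per kb in mKO and 4.55 ± 0.845 CPM per kb in control. This order held in 6 of 6 libraries, although the control ranges of Gp9 and Clec1b overlapped, as did those of Gp1ba and Gp6. Lengths come from GENCODE M21, an annotation of an earlier build than the one the counts were made on. Over the union of all annotated exons in place of the principal transcript, 7 of the 10 kept their rank in the control group, and Clec1b moved to the fourth.

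Other genes of platelets and megakaryocytes were mostly lower in mKO on average too, without passing the test. Of 33 such genes, 28 had a negative and 5 a positive log2 fold change, with a median of -0.39, and 0 passed by edgeR quasi-likelihood. At an unadjusted p under 0.05 by edgeR there were 1 higher and 5 lower. Of all genes, 6.26% were lower at that threshold and 11.9% passed it in either direction. The largest negative ones were Cd226, a platelet and lymphocyte receptor, at -0.78 (SE 0.29), and the chemokine Pf4 at -0.77 (SE 0.25). The largest positive ones were Nbeal2, a gene needed for alpha granules, at 0.70 (SE 0.18), and Selp, P-selectin of platelets and endothelium, at 0.34 (SE 0.16). DESeq2 called 1 of the 33, Nbeal2, as higher. Groups separated for 2 higher (Nbeal2 and Selp) and 2 lower (P2ry12 and Trpc6) genes of the 33. Of all genes, 18.2% separated in either direction and 9.39% separated lower. The summed level of the 10 glycoprotein genes was 0.209, 0.241 and 0.207 of the summed level of these 33 genes in the mKO libraries, against 0.244, 0.231 and 0.246 in the control libraries. Libraries 1 and 3 of mKO had the lowest values of this ratio, and mKO library 2 lay among the control libraries.

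**Figure D4:**
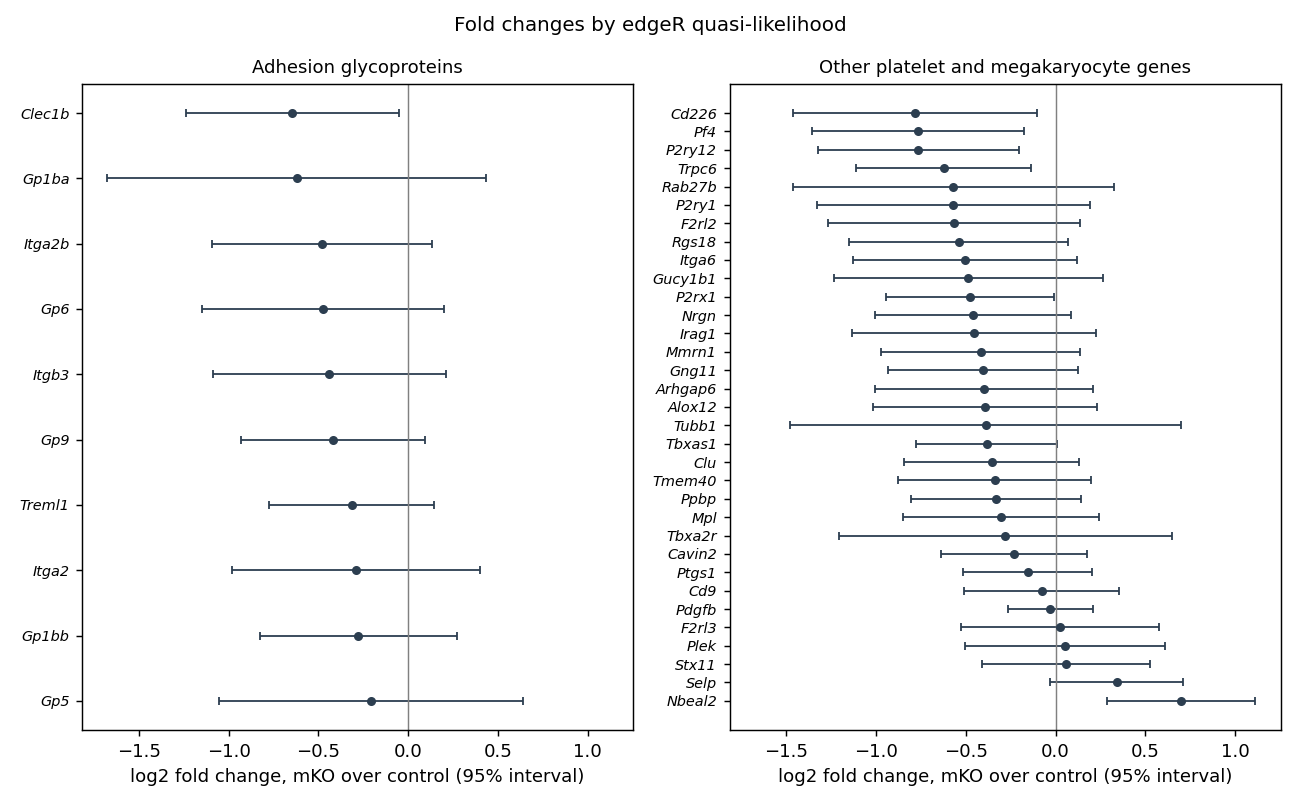
Log2 fold change of mKO over control with its 95% interval, by edgeR quasi-likelihood, for the 10 glycoprotein genes and for 33 other platelet and megakaryocyte genes. All 10 glycoprotein estimates lie left of 0, from -0.65 for Clec1b to -0.21 for Gp5, and 9 of the 10 intervals reach across 0.

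Among megakaryocyte transcription factors, 8 of 12 had a negative log2 fold change, and 0 passed by edgeR or DESeq2. At an unadjusted p under 0.05 by edgeR, 1 was higher (Runx1) and 2 were lower (Gata1 and Gata2). Gata1, which drives many megakaryocyte and red cell genes, had 5.55, 12.3 and 7.31 CPM in the mKO libraries, against 12.1, 16.0 and 15.5 CPM in the control libraries. The log2 fold change was -0.79 (SE 0.29). Library 2 of mKO was again the mKO library nearest to control. For Gfi1b, a repressor of the same lineages, the log2 fold change was -0.63 (SE 0.30), and for Gata2 it was -0.38 (SE 0.14). Groups separated for 1 lower gene, Gata2, and 1 higher gene, Runx1, of the 12, where 18.2% of all genes separated. Those of Gata1 overlapped. Runx1 and Fli1, which other blood cells and endothelium also express, stood at 0.40 (SE 0.15) and 0.25 (SE 0.13) on the same scale. Which cells gave the transcripts was not tested for any of the 12, those that were lower included.

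Of 5 genes whose proteins join the glycoproteins, 2 had a negative and 3 a positive log2 fold change, and 0 passed by edgeR or DESeq2, or at an unadjusted p under 0.05. Itgb1, the partner of Itga2 and of many other integrin chains, had -0.37 (SE 0.17), with groups that did not overlap. Itgav, another alpha chain that pairs with Itgb3, had 43.1, 43.9 and 45.6 CPM in the mKO libraries, against 42.5, 39.2 and 39.9 CPM in the control libraries. Its groups did not overlap either, as for 18.2% of all genes, and its log2 fold change was 0.12 (SE 0.094). Flna, which anchors Gp1ba to actin, had -0.15 (SE 0.20), Ywhaz, an adaptor that binds the tail of Gp1ba, had 0.13 (SE 0.14), and Fcer1g, the signalling chain of Gp6 and of myeloid Fc receptors, had 0.16 (SE 0.19). Of 13 ligands and their regulators, 5 were not among the genes with deposited counts and could not be tested. These were Fga, Fgb and Fgg of fibrinogen, Cd40lg and Adamts13. Of the 8 tested, 7 had a negative log2 fold change and 0 passed by edgeR or DESeq2, with Pdpn alone under an unadjusted p of 0.05 by edgeR. Among all genes, 54.1% had a negative log2 fold change and 11.9% were under that unadjusted p. The collagen chains Col1a2 and Col1a1 had -0.56 (SE 0.41) and -0.41 (SE 0.41), and Pdpn, the podoplanin that Clec1b binds, had 0.36 (SE 0.13, adjusted p 0.369 by edgeR quasi-likelihood). For Pdpn the mKO libraries had 83.4, 70.4 and 63.1 CPM, against 58.5, 53.8 and 57.1 CPM in the control libraries, and these groups did not overlap.

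Kinases and adaptors below Gp6 and Clec1b, most of which leukocytes share, had 11 positive and 4 negative values of 15, with a median log2 fold change of 0.20. By edgeR quasi-likelihood 0 passed (3 higher at an unadjusted p under 0.05), and DESeq2 called 2 as higher, Tec and Plcg2. Among all genes, 11.9% were under that unadjusted p in either direction, and DESeq2 called 2.80%. Groups did not overlap for 4 of the 15, each higher in mKO, where 18.2% of all genes separated. Vav3 had 0.50 (SE 0.20), the kinase Tec 0.47 (SE 0.11), the adaptor Lat -0.35 (SE 0.26) and the kinase Fyn -0.31 (SE 0.18). Of 9 genes that activate the integrins from inside the cell, 3 were positive and 6 negative. By edgeR or DESeq2 0 of the 9 passed (2 higher at an unadjusted p under 0.05 by edgeR). Groups did not overlap for 2 of the 9, each higher in mKO. Apbb1ip, which links Rap GTPases to talin, had 0.72 (SE 0.22) and Prkcb, a protein kinase C, 0.44 (SE 0.12), while Prkca had -0.42 (SE 0.27) and Rasgrp2, the Rap activator of platelets, -0.18 (SE 0.23). Of the enzymes that cut glycoproteins from the platelet surface, Adam17, which sheds Gp1ba, had 74.7, 89.3 and 85.8 CPM in the mKO libraries, against 64.1, 59.2 and 61.3 CPM in the control libraries. The groups of Adam17 did not overlap, and its log2 fold change was 0.44 (SE 0.12, adjusted p 0.274 by edgeR quasi-likelihood and 0.0198 by DESeq2). Adam10, which sheds Gp6, had 0.08 (SE 0.14).

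Markers of blood cells and of the vein wall were measured in the same libraries, as the label of a vein with its thrombus implies, and 0 of them passed by edgeR quasi-likelihood. Summed over 11 erythroid genes, the level was 238926 to 284927 CPM in mKO and 200931 to 259045 CPM in control. All 11 had a positive log2 fold change, and DESeq2 called 6 of them higher. The 10 neutrophil genes summed to 14877 to 21713 CPM in mKO and 11051 to 18924 CPM in control, and the 10 monocyte and macrophage genes, which include Lyz2 itself, to 3172 to 3693 CPM in mKO and 3137 to 3549 CPM in control. Of these, 7 of the neutrophil and 9 of the macrophage genes had a positive log2 fold change, and DESeq2 called 1 neutrophil gene (Mmp9) and 2 macrophage genes (Spp1 and Cd68) higher. In the macrophage list Lyz2, which holds the Cre insertion, had -0.78 (SE 0.26). Endothelial genes, 10 in all, summed to 593.1 to 713.2 CPM in mKO and 744.8 to 899.3 CPM in control, without overlap, and all 10 had a negative log2 fold change, 2 of them called lower by DESeq2 (Cldn5 and Emcn). Smooth muscle genes, 10 in all, summed to 824.5 to 1707 CPM in mKO and 1421 to 3401 CPM in control, with all 10 negative. The 6 fibroblast genes, 2 positive and 4 negative, summed to 266.4 to 400.9 CPM in mKO and 222.7 to 380.4 CPM in control. At an unadjusted p under 0.05 by edgeR, 7 erythroid, 1 neutrophil, 2 macrophage and 1 fibroblast genes were higher. At the same threshold, 1 macrophage, 3 endothelial and 1 smooth muscle genes were lower. Among all genes, 11.9% passed that threshold in either direction, and DESeq2 called 2.80%. A negative log2 fold change was found in 54.1% of all genes, and 18.2% of single genes had groups that did not overlap. None of the markers in these 6 lists was at 0 in any library. Library 2 of mKO, whose summed glycoprotein level was the highest of the mKO libraries, had the lowest smooth muscle and endothelial sums of the 6. The same library had the highest erythroid, neutrophil and macrophage sums of the 6. The part of cell makeup in the glycoprotein values was not tested.

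By the root mean square difference between centred log2 CPM over the 6 libraries, Itgb3 and Gp6 were the closest pair of the 10, at 0.03, and Gp1ba and Gp1bb the farthest, at 0.40. A mean profile was taken over 8 of the glycoprotein genes, without Itgb3 and Itga2. Whether these 8 are made by platelets and megakaryocytes alone was not tested. Measured against this profile, Itga2b was closest, at 0.05, and Gp1ba farthest, at 0.25. Of the 2 genes left out of that profile, Itgb3 lay at 0.06 and Itga2 at 0.12. Each of the 8 is part of the mean it was measured against, which shortens its distance. Their distances are therefore not comparable with those of genes outside the mean. Among 13876 other genes with at least 1 CPM on average, the 8 nearest to this profile were Mpig6b (0.04), Ston2, Alox12, Ywhah, Trim9, Gm10419, Cnp and Gm12428 (0.06). Mpig6b had 111.4, 213.9 and 132.4 CPM in the mKO libraries, against 161.9, 203.9 and 235.2 CPM in the control libraries. All 6 libraries entered this measure, and the points share library depth and scaling.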

How the data were processed

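Polyadenylated RNA of 6 libraries was sequenced in paired-end reads, per the labels' protocols. For each library the authors deposited 1 table of unnormalized read counts by gene. The submitters' processing notes list, without their roles, featureCounts 2.0.1, HISAT2 2.1.0, FastQC 0.11.8, Trim Galore 0.4.0 and build GRCm39. The sources used here do not state the strand setting or the handling of shared reads. Groups were taken from the genotype label. The 10 genes and the lists were chosen with earlier results of these data known. The main test was edgeR's (version 4.0.16, R 4.3.3; quasi-likelihood F-test on counts, TMM, robust dispersion, default filter, all genes, Benjamini-Hochberg threshold 0.05). CPM are counts scaled by TMM library sizes, and log2 CPM used a prior count of 2. SE is that implied by the F-test. Ratios were compared with exact permutation tests over 20 arrangements. DESeq2 1.42.0, limma 3.58.1 voom, other scalings and filters, a replicate block and leaving out each library were alternatives. No replicates agreed within sampling noise. The fit was checked on simulated data. Named genes were the 10 genes, Sting1, up to 2 genes in each direction per list with at least 1 CPM on average, and the 8 genes nearest in profile. Plcg2, Itgav, P2ry12, Trpc6 and Gata2 were named after their values were seen.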

Additional observations from a re-analysis of the deposited data

How the results depend on the processing

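Each of the 10 genes was refitted in 16 other settings, giving 160 values, of which 0 passed an adjusted p of 0.05 and 158 kept a negative sign. The smallest adjusted p was 0.193, for Clec1b by DESeq2. The exceptions in sign were Gp5 without mKO library 1 (0.075; range -0.67 to 0.075 on leaving out each library) and Gp1bb without mKO library 3 and control library 3 (0.021), a setting added after seeing the data; the cause was not tested. The median over the 10 genes lay between -0.72 and -0.24 on leaving out each library in turn. It was -0.23 without both of those libraries, and -0.45 over the 8 genes other than Itgb3 and Itga2. Over all genes, edgeR called 0 to 7 on leaving out a library and 6 without the same 2 libraries, and DESeq2 called 462. With a replicate block the median was -0.46 and 0 genes were called. Same-numbered libraries did not deviate together (correlations -0.14, -0.15 and -0.27 over genes). These deviations were taken within groups of 3 libraries, so whether same-numbered libraries shared a day or batch cannot be told from them. Counting error was small at this depth, with at least 2985 counts for each of the 10 genes in each library.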
